A study of Mus musculus with 8 samples.

Results

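The 39 genes described here encode the machinery that builds the mitotic spindle, attaches chromosomes to it, checks those attachments and divides the cell, together with the proliferation gene Mki67 and the transcription factors Foxm1 and Mybl2. They were chosen by name, and every array probe set that the annotation pairs with only 1 of them was read. Of the 39 genes, 38 had such a probe set, 85 probe sets in all out of 45101 on the array. The cyclin gene Ccnb1 had none and has no value.

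Expression was measured in 8 untreated neuroblastomas of LSL-MYCN;Dbh-iCre mice, with 1 Affymetrix mouse oligonucleotide array per tumor. Neuroblastoma is a childhood tumor of the developing sympathetic nervous system. In these mice human MYCN sits in the ROSA26 locus behind the CAG promoter and a lox-flanked stop cassette, and a Cre recombinase driven by the dopamine beta-hydroxylase (Dbh) promoter removes the stop in noradrenergic cells. All 8 tumors carried both transgenes, so no tumor lacked the MYCN transgene and no normal tissue was analysed here. Tumors 1 to 6 arose in the adrenal gland and tumors 7 and 8 in the superior cervical ganglion, which lies in the neck and belongs to the sympathetic chain. The labels do not say whether each tumor came from its own mouse and give no age for the mice sampled, so p-values measure only the spread between these samples. Values are log2 expression values, so a difference of 1 is a 2-fold difference.

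In mitosis, cyclin-dependent kinase 1 with its A- and B-type cyclins starts chromosome condensation and spindle assembly. The kinetochore, a protein complex built on centromeric chromatin, captures spindle microtubules, and unattached kinetochores feed the spindle checkpoint, which holds back the anaphase-promoting complex (APC/C) and its activator Cdc20. Once the checkpoint is satisfied, securin and cyclin B are destroyed, separase cuts cohesin, and the chromosomal passenger complex moves to the midzone, where kinesins and their partners prepare cytokinesis. Transcripts of most of these genes peak late in the cell cycle. In resting cells the DREAM complex is known to repress many of them through a promoter element named CHR (cell cycle genes homology region), and MuvB with B-Myb and Foxm1 activates them in dividing cells, with NF-Y bound to CCAAT boxes.

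Because such promoter elements are what many of these genes are known to share, the RefSeq promoter windows (GRCm38.p6, 250 bases before to 50 bases after the transcription start) of the members were searched on both strands. The motifs were CHR as TTTGAA or TTCGAA, the CCAAT box as CCAAT, E2F sites as TTTCCCGC, TTTGGCGC or TTTCGCGC, and the MYC E-box as CACGTG, none of which contains another. The 6 stretches below run from 150 bases before to 10 bases after the start, 5′ to 3′ on the strand of the gene, with CHR and CCAAT matches on either strand in capitals. They show the arrangements that recur among the members and, in Pttg1, a window without either element.
Cdk1, chr10:69352903-69353062, minus strand: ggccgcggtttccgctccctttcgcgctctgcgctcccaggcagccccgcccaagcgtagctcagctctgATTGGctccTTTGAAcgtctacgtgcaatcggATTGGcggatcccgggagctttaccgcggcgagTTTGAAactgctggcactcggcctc
Ccnb2, chr9:70421545-70421704, minus strand: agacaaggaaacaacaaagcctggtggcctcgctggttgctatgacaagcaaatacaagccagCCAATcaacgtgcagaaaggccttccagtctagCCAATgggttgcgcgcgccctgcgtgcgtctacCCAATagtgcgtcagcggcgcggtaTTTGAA
Cdc20, chr4:118437334-118437493, minus strand: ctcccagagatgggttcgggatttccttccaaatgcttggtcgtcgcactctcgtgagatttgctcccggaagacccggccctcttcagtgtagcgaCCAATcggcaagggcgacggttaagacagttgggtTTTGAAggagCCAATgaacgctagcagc
Kif11, chr19:37376232-37376391, plus strand: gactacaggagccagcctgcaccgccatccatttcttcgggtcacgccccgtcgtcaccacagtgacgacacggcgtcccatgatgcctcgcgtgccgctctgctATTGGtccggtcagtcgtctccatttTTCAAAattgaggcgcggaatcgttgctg
Top2a, chr11:99024180-99024339, minus strand: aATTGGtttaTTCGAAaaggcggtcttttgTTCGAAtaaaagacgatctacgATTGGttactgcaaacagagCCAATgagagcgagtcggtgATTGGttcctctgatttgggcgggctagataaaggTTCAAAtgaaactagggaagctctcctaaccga
Pttg1, chr11:43425972-43426131, minus strand: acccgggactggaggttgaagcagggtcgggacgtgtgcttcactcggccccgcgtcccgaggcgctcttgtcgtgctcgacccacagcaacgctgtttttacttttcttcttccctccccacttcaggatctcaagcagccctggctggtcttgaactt

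The Cdk1 stretch held 2 CHR matches and 2 CCAAT boxes, and its CHR nearest the start began 15 bases before it. In Ccnb2 the 3 CCAAT boxes lay 33 bases apart from first base to first base, and the CHR began 5 bases after the start. Top2a, with 3 CHR matches and 4 CCAAT boxes in this stretch, had the most of the 6. Of the 39 members, 32 had a promoter in the table. Ccna2, Spc24, Tpx2, Aurkb, Incenp, Kif20a and Foxm1 had none. A CHR match was present in 25 of the 32 members (78.1%, 95% Wilson interval 61.2 to 89.0), against 16.7% of the genes tested on the arrays and 21.7% of all genes in the promoter table. The share was 50.0% among other mitosis genes, 26.7% among the APC/C genes within that list and 20.0% among DNA replication genes. A CHR lying within 50 bases of the start was present in 71.9% of the members and in 4.4% of the genes tested. In the bases before the start alone, a CHR was found in 37.5% of the members, 35.6% of the other mitosis genes and 1945 of the 12951 genes tested that have a promoter in the table.

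CCAAT boxes were found in 71.9% of the members and 42.0% of the genes tested, and a CHR together with a CCAAT box in 65.6% and 6.71%. The E2F letters occurred in 3.12% of the members, which is Cdk1 alone, against 35.6% of the DNA replication genes and 3.47% of the genes tested. The E-box, the letters bound by MYC family proteins, occurred in 9.38% of the members (Ttk, Espl1 and Anln) and 10.6% of the genes tested. The related letters TTTAAA, searched apart from the CHR, were found in 25.0% of the members and 11.5% of the genes tested. In 15 members at least 2 CCAAT boxes were found, and in 5 of them, Cdk1, Ccnb1, Ccnb2, Aurka and Spc25, a pair lay 31 to 33 bases apart. Mad2l1, Pttg1, Nuf2, Nusap1 and Mybl2 had neither CHR nor CCAAT in their windows. These are matches of letters and not measured binding sites.

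All 38 measured members were detected in all 8 tumors, where detection means a value above the 95th percentile of 86 probe sets for olfactory, vomeronasal and taste receptors on the same array. Of all 16254 genes tested, 61.3% were detected in every tumor. The level of each gene was read from its probe set with the highest mean. Levels of different genes were not compared with each other, because each probe set has its own response. The arrays of tumor 1 (Gapdh end controls), tumor 6 (hepatocyte genes) and tumor 7 (low noradrenergic markers) stood apart from the rest, and their values are given beside the results they touch.

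Most of the 38 genes shared their high and low tumors. Tumor 3 held the highest value of 29 of them, against 11.0% of all genes tested, and 37 of the 38 were above their own mean there, against 51.2% of all genes. The other 9 were highest in tumor 1 (Cdc20, Kif2c, Aurkb, Incenp and Ect2), tumor 4 (Cenpe, Racgap1 and Mybl2) or tumor 7 (Bub3). The lowest value lay in tumor 2 for 18 members and in tumor 5 for 11, so that tumors 2 and 5 together held 29 of the 38 lowest values against 22.5% of all genes. The median deviation of the members from their own means over the 8 tumors was 0.20, −0.47, 0.60, 0.31, −0.37 and 0.10 on the log2 scale in adrenal tumors 1 to 6. It was −0.11 in ganglion tumor 7 and −0.02 in ganglion tumor 8. The same median over all genes tested stayed between −0.06 and 0.11. The adrenal tumors thus held both the highest and the lowest of these medians, with the ganglion tumors between them. Since each tumor had 1 array, differences between single tumors have no replicate and are given without a test. In bulk tissue a smaller share of dividing cells and less RNA of these genes per cell cannot be told apart.

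**Figure D1:**
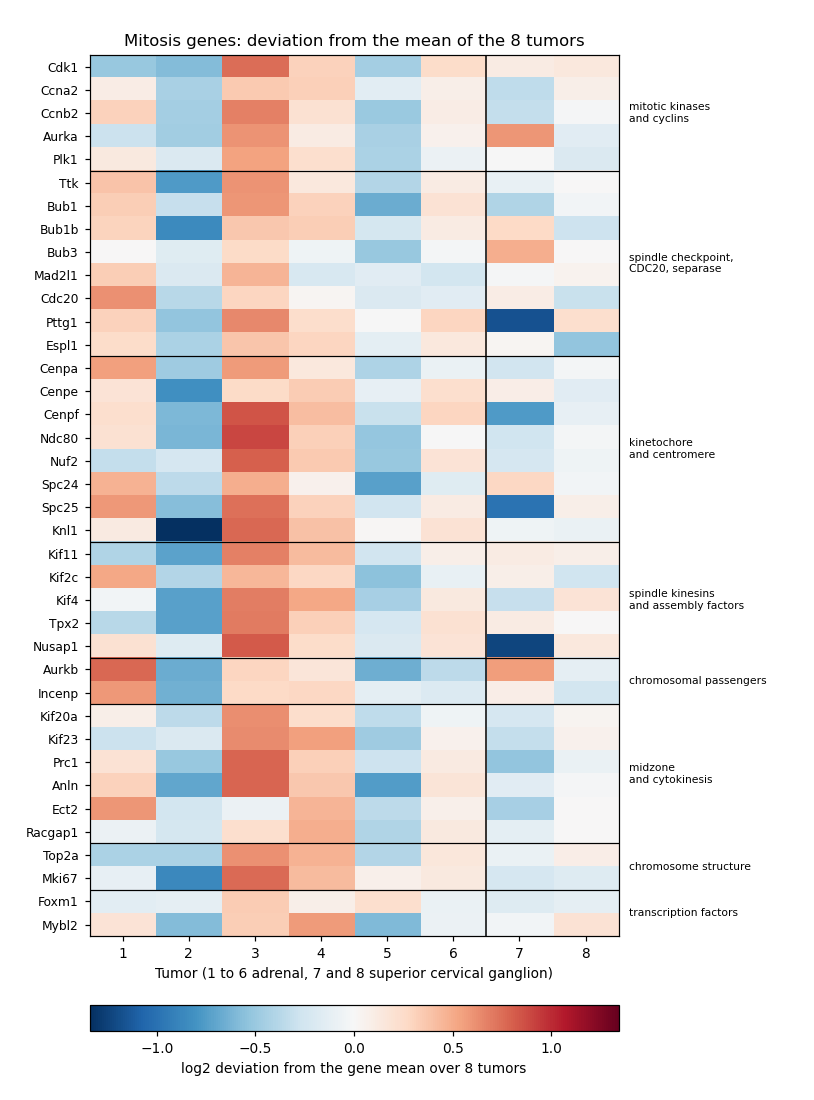
Heat map of the log2 deviation of each of the 38 measured mitosis genes (rows, grouped by role) from its mean over the 8 tumors (columns, with the 6 adrenal tumors left of the line). Tumor 3 is above the mean for 37 genes, tumors 2 and 5 are mostly below it, and tumor 7 is low for Pttg1, Cenpf, Spc25 and Nusap1.

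Between tumors 3 and 2 all 38 members were higher in tumor 3, with a median difference of 1.03 on the log2 scale or 2.04-fold. The difference ran from 0.17 for Ect2, 1.13-fold, to 2.11 for Knl1, 4.32-fold. The Knl1 value of tumor 2 lay close to the detection limit of that array, so this fold rests on a reading near background. The difference was at least 1 for 20 of the 38 members, against 2.4% of all genes, whose median difference was −0.05. Tumors 2 and 3 were set against each other because their members' medians were the lowest and the highest, so these figures describe the span and support nothing further. The SD over the 8 tumors had a median of 0.42 among the members, from 0.19 for Foxm1 to 0.61 for Knl1, and 37 of the 38 exceeded the median of all genes, 0.26.

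Mitotic entry is driven by the kinase Cdk1. Its level was 10.78, 10.71, 12.04, 11.60, 10.83 and 11.54 in adrenal tumors 1 to 6 and 11.40 and 11.43 in ganglion tumors 7 and 8. Adrenal tumors 1, 2 and 5 thus read low and the other 5 tumors read higher, at 11.40 or more against at most 10.83. Ccnb2, a B-type cyclin partner of Cdk1, read 10.77, 10.01, 11.14, 10.66, 9.97 and 10.56 in tumors 1 to 6 and 10.15 and 10.44 in tumors 7 and 8. Tumor 1 was second highest for the cyclin while it was second lowest for the kinase. Each of these genes had only 1 probe set, and the array of tumor 1 stood apart in its Gapdh end controls. The part of the probe set in this contrast was not tested. Ccna2, the A-type cyclin that acts in S phase and at mitotic entry, spanned only 11.85 in tumor 2 to 12.64 in tumor 3. Plk1, the polo-like kinase of centrosome maturation and mitotic exit, ran from 9.60 in tumor 5 to 10.57 in tumor 3. Aurka encodes Aurora A, the centrosomal kinase that also stabilizes MYCN protein. It read 9.38, 9.20, 10.27, 9.77, 9.23 and 9.72 in tumors 1 to 6, 10.25 in tumor 7 and 9.52 in tumor 8. Tumors 3 and 7 were the highest for Aurka. All 5 measured genes of this group were highest in tumor 3.

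By the probe set with the highest mean, the spindle checkpoint kinase genes Ttk and Bub1 and the pseudokinase gene Bub1b followed the common pattern. Ttk, which encodes the kinase that starts checkpoint signaling at kinetochores, read 10.33, 9.19, 10.55, 10.09, 9.56 and 10.06 in tumors 1 to 6 and 9.85 and 9.95 in tumors 7 and 8. Bub1 was lowest in tumor 5 at 9.91 and highest in tumor 3 at 11.17. Bub1b was lowest in tumor 2 at 9.06, while the other 7 tumors lay between 9.64 and 10.27. Further probe sets gave other high tumors. For Bub1, 1 detected in 7 tumors was highest in tumor 1 at 9.36 and lowest in tumor 2 at 6.47. For Ttk, 1 detected in 5 tumors was highest in tumor 7 at 7.80. For Bub1b, 1 detected in every tumor was highest in tumor 4 at 10.30. Mad2l1, whose product binds and blocks Cdc20, ran from 11.03 in tumor 6 to 11.74 in tumor 3, a range of 0.71. Bub3, a WD-repeat protein that holds Bub1 at kinetochores, was the only member of the 38 highest in tumor 7 by the probe set with the highest mean. Its value there was 13.07, against 12.08 to 12.85 in the 6 adrenal tumors and 12.59 in tumor 8.

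Cdc20, the activator of the APC/C, was highest in tumor 1 at 12.91, above tumor 3 at 12.59, and lowest in tumor 2 at 11.92. Espl1, which encodes separase, ran from 9.58 in tumor 8 to 10.49 in tumor 3. Pttg1 encodes securin, the inhibitor that holds separase until anaphase. It read 12.74, 11.90, 13.07, 12.66, 12.42 and 12.72 in tumors 1 to 6, 11.26 in tumor 7 and 12.66 in tumor 8. Tumor 7 was thus the lowest, below all 6 adrenal tumors, while tumor 8 lay among them. A second Pttg1 probe set read 8.01 in tumor 7 against 9.51 to 10.94 in the other 7 tumors.

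**Figure D2:**
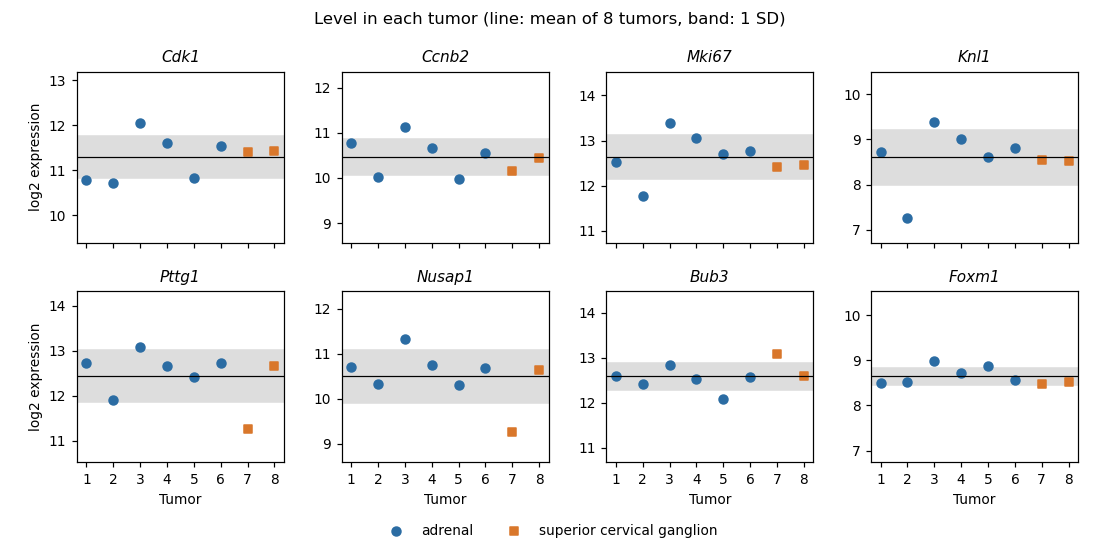
Log2 expression of 8 members in each tumor, with circles for the 6 adrenal tumors, squares for the 2 ganglion tumors, a line at the mean of the 8 tumors and a band of 1 SD on either side. Every panel spans the same log2 range. Cdk1, Ccnb2 and Mki67 are highest in tumor 3, Knl1 is lowest in tumor 2, Pttg1 and Nusap1 are lowest in tumor 7, Bub3 is highest in tumor 7 and Foxm1 varies least.

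The kinetochore genes had a median SD of 0.45 over the 8 tumors, and 7 of the 8 were highest in tumor 3. Ndc80 and Nuf2 encode the microtubule-binding arm of the outer kinetochore, and Spc24 and Spc25 the part that anchors it. Ndc80 read 8.82, 8.00, 9.50, 8.92, 8.09 and 8.61 in tumors 1 to 6 and 8.34 and 8.58 in tumors 7 and 8. Nuf2 differed from its partner in tumor 1, where it read 9.78, below its mean of 10.10, while Ndc80 was above its mean of 8.61. Both genes had only 1 probe set, and the array of tumor 1 stood apart in its Gapdh end controls. Spc24 was lowest in tumor 5 at 9.49 and highest in tumor 3 at 10.71, with 10.50 in tumor 7. Spc25 read 12.00, 10.84, 12.16, 11.73, 11.16 and 11.53 in tumors 1 to 6, 10.43 in tumor 7 and 11.50 in tumor 8. By these probe sets the genes of the 2 partner proteins parted in tumor 7, where Spc24 was above its mean of 10.22 and Spc25 below its mean of 11.42. A further Spc25 probe set, detected in 2 tumors, read 6.74 in tumor 7, above its mean of 6.57.

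Knl1 encodes the large scaffold on which Bub1 and Bub3 assemble. It read 7.27 in tumor 2 and between 8.52 and 9.38 in the other 7 tumors, which made it the member with the widest range. The tumor 2 value lay barely above that array's detection limit of 7.21. It was below 7.39, the 99th percentile of the same receptor probe sets. A further Knl1 probe set was detected in the other 7 tumors only. It read 7.13 in tumor 2 beside 7.16, 7.18 and 6.97 in tumors 5, 6 and 7, so tumor 2 did not stand alone by it. Cenpe, the kinetochore kinesin that brings chromosomes to the metaphase plate, also stood low in tumor 2 at 9.47, against 10.14 to 10.64 elsewhere. Cenpf, a large coiled-coil protein of the outer kinetochore, ran from 10.08 in tumor 7 and 10.23 in tumor 2 to 11.68 in tumor 3. Cenpa, the histone variant that marks the centromere, ran from 11.04 in tumor 2 to 12.09 in tumor 3, with tumor 1 close behind at 12.07.

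Of the spindle genes, Kif11 encodes the motor that pushes the spindle poles apart. It read 9.83, 9.52, 10.92, 10.66, 9.98 and 10.32 in tumors 1 to 6 and 10.35 and 10.32 in tumors 7 and 8. Tpx2, the microtubule nucleation factor that activates Aurora A, ran from 9.32 in tumor 2 to 10.74 in tumor 3, with 9.68 in tumor 1. Kif4, the chromokinesin, ran from 8.99 in tumor 2 to 10.40 in tumor 3. Kif2c, a kinesin that takes microtubules apart at the centromere, was lowest in tumor 5 at 10.42 and read 11.49 in tumor 1 and 11.42 in tumor 3. Nusap1 encodes a microtubule-bundling protein that binds near chromosomes. It read 10.70, 10.33, 11.32, 10.75, 10.30 and 10.69 in tumors 1 to 6, 9.26 in tumor 7 and 10.64 in tumor 8, so that tumor 7 was more than 1 below every other tumor.

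By the probe set with the highest mean, the chromosomal passenger genes were the only group with no member highest in tumor 3. Aurkb, the kinase that corrects faulty attachments, read 9.97, 8.54, 9.49, 9.36, 8.55 and 8.85 in tumors 1 to 6, 9.76 in tumor 7 and 9.07 in tumor 8. Incenp, its scaffold, read 12.25 in tumor 1, 11.95 in tumors 3 and 4 and 11.03 in tumor 2. By these probe sets tumor 1 was highest for both genes and tumor 2 lowest. A further Incenp probe set, detected in every tumor, was highest in tumor 3 at 10.14, with 9.54 in tumor 1. A further Aurkb probe set was highest in tumor 7 at 9.67, with 9.63 in tumor 1 and 8.52 in both tumor 2 and tumor 5.

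In the midzone and cytokinesis group, Prc1, which bundles the antiparallel microtubules of the midzone, read 10.87, 10.16, 11.45, 10.99, 10.39 and 10.79 in tumors 1 to 6 and 10.14 and 10.58 in tumors 7 and 8. Anln, the scaffold that links actin and septins in the contractile ring, ran from 9.68 in tumor 5 and 9.74 in tumor 2 to 11.21 in tumor 3. Kif20a and Kif23 encode midzone kinesins, and both were highest in tumor 3, at 10.21 and 9.67. By the probe set with the highest mean, Ect2 and Racgap1 were not highest in tumor 3. Ect2, which is needed for cytokinesis, was highest in tumor 1 at 12.19 and read 11.52 in tumor 3, under its mean of 11.60, which made it the 1 member not above its own mean there. Racgap1, the partner of Ect2 and of Kif23, was highest in tumor 4 at 11.27, with 11.01 in tumor 3. A further Racgap1 probe set was highest in tumor 3 at 9.80, with 9.67 in tumor 4.

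Top2a, which untangles sister chromatids, read 11.97, 11.97, 13.01, 12.86, 12.00 and 12.55 in tumors 1 to 6 and 12.31 and 12.49 in tumors 7 and 8. Mki67, which encodes the Ki-67 protein used in pathology to mark cycling cells, read 12.52, 11.77, 13.39, 13.05, 12.70 and 12.76 in tumors 1 to 6 and 12.41 and 12.45 in tumors 7 and 8. Tumors 3 and 4 were the highest for both by these probe sets. A further Top2a probe set, detected in every tumor, read 8.83 in tumor 4, 8.77 in tumor 7 and 8.30 in tumor 3. The transcription factor Foxm1 spanned 8.48 to 8.99, less than any other member, and was above its mean in tumor 5 at 8.87, where most of the other members were low. Mybl2, which encodes B-Myb, ran from 8.42 in tumor 5 and 8.44 in tumor 2 to 9.59 in tumor 4. A further Mybl2 probe set, detected in every tumor, gave another order. It was highest in tumor 1 at 8.82 and lowest in tumor 8 at 7.49, with 8.12 in tumor 4.

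The other genes of the pathway, taken from a list of 108 kinetochore, spindle, kinase, APC/C, condensin, cohesin and DREAM genes, had smaller median deviations than the members in every tumor but tumor 7. Their median deviation over the 105 tested was 0.16, −0.28, 0.36, 0.17, −0.31 and −0.01 in tumors 1 to 6, −0.13 in tumor 7 and 0.00 in tumor 8. From tumor 2 to tumor 3 their median difference was 0.68, with 93 of 105 higher in tumor 3. By group, this difference was 0.90 for other kinesins and spindle genes, 0.74 for cohesin, 0.73 each for other kinases and phosphatases and for other passengers and shugoshins, 0.71 for other kinetochore genes and 0.70 for condensin. It was 0.41 for DREAM and MuvB genes and 0.09 for the 16 genes of the APC/C list. Of those 16 genes 12 were higher in tumor 3. Fbxo5, the APC/C inhibitor Emi1 counted in the same list, read 8.75 in tumor 2 and 10.39 in tumor 3.

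The widest SD among these other mitosis genes belonged to Nek2, Cdc25c, Fbxo5, Rbl1 and Bora. Nek2, a centrosome kinase, was lowest in tumor 7 at 8.54 and read 9.10 to 10.68 in the other 7 tumors. Cdc25c, the phosphatase that activates Cdk1, was likewise lowest in tumor 7 at 8.16 and highest in tumor 1 at 10.28. Rbl1, the p107 pocket protein of the DREAM complex, read 8.10 in tumor 7 against 8.85 to 9.77 in the others. Bora, the cofactor with which Aurora A activates Plk1, was highest in tumor 7 at 9.51, where Aurka was high too. Mad1l1, Kif14 and Kif15 were not above the detection limit in any tumor.

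DNA replication genes, which act in S phase, were read in the same tumors. Over 53 genes their median deviation was 0.17, −0.38, 0.31, 0.20, −0.46 and 0.00 in tumors 1 to 6, 0.07 in tumor 7 and −0.04 in tumor 8. Tumor 5 was lowest for 28 of the 53 and tumor 2 for 17, whereas among the mitosis members tumor 2 was lowest for 18 of 38 and tumor 5 for 11. Of the 5 replication genes with the widest SD, Ung, which removes uracil from DNA, was highest in tumor 7 at 11.00. Cdc6, a licensing factor, was lowest in tumor 5 at 7.80, Pole2, a polymerase subunit, was lowest in tumor 5 at 8.32, and Clspn, the checkpoint adaptor claspin, was lowest in tumor 2 at 8.90. Tyms, thymidylate synthase, was detected in 1 tumor only.

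**Figure D3:**
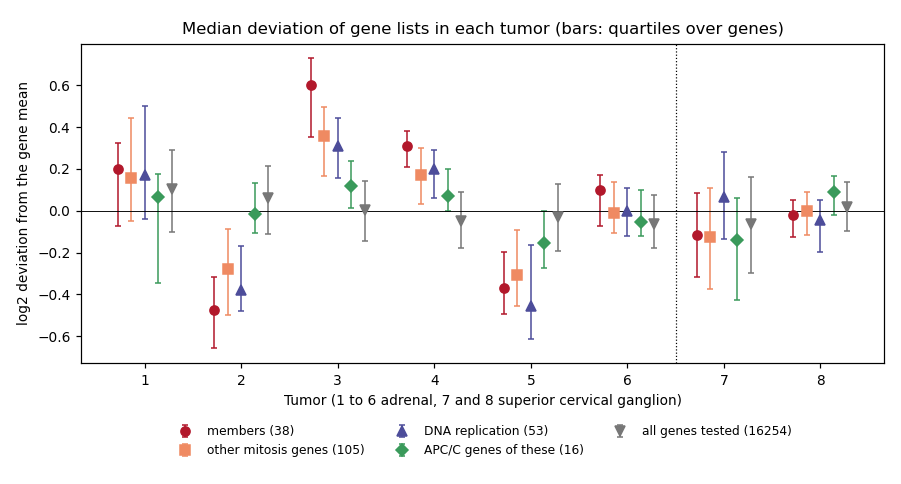
Median log2 deviation from the gene mean in each tumor for the 38 members, 105 other mitosis genes, the 16 APC/C genes among these, 53 DNA replication genes and all 16254 genes tested, with bars from the lower to the upper quartile over genes (not an error of the median). The members reach 0.60 in tumor 3 and −0.47 in tumor 2, while all genes stay near 0.

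The span between tumors 2 and 3 was also read by promoter match. The 25 members with a CHR had a median tumor 3 minus tumor 2 difference of 1.12, and 20 of them were highest in tumor 3. The 6 measured members whose window held no CHR, Mad2l1, Pttg1, Cenpe, Nuf2, Nusap1 and Mybl2, had a median of 1.01, and 4 of them were highest in tumor 3. Outside the mitosis, replication and G1 lists, 209 tested genes had a CHR within 50 bases of the start and a CCAAT box. Their median difference was 0.04, and 17.2% were highest in tumor 3, against 10.3% of 12568 genes without this pair of elements.

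Many members had more than 1 probe set, 26 of the 38, with up to 5 each. Of the 85 probe sets, 58 were detected in all 8 tumors, 13 in some and 14 in none. Of the 20 further probe sets detected everywhere, which belong to 17 members, all 20 were above their own mean in tumor 3 and 19 were below it in tumor 2. They were highest in tumor 3 for 11, in tumor 1 for 4 and elsewhere for 5. Nearly all of these probe sets thus placed tumor 3 above and tumor 2 below the mean. They come from the same genes and arrays, so they are no separate evidence. With 1 probe set per gene, 8327 of the 16254 genes tested were above their mean in tumor 3. In tumor 2, 6426 were below it.

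The probe sets of a gene parted most often in tumor 1. For each of the 20 pairs, the log2 difference between both probe sets of a gene was compared across tumors, and tumor 1 lay outside the range of the other 7 in 14 pairs, tumor 7 in 8 and each other tumor in 1 to 5. Every pair has a highest and a lowest tumor, so only a count well above an even share among the 8 tumors sets a tumor apart. Tumor 1 lay farthest from the median in 11 pairs and tumor 7 in 5. The same counts were not made over all genes. For Prc1 the difference was 1.50 in tumor 1 and 0.24 to 0.55 elsewhere. For Bub1b it was 0.65 in tumor 1 and −0.12 to 0.15 elsewhere, and for 1 of 2 pairs of Kif11 it was 1.37 against 1.96 to 2.92. A further Kif2c probe set was not detected in tumor 1, at 7.12, and read 8.14 to 9.70 in the other tumors, although the probe set with the highest mean placed tumor 1 first. For Cdc20, Aurkb and Incenp too, tumor 1 was highest by the probe set with the highest mean and not by every further one. The Gapdh control probe sets at the 3′ and 5′ ends of the transcript differed by 5.51 in tumor 1 and by 0.47 to 1.57 in the other 7 tumors, and the part of this in the tumor 1 values was not tested. For these genes the place of tumor 1 in the order thus changed with the probe set read.

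**Figure D4:**
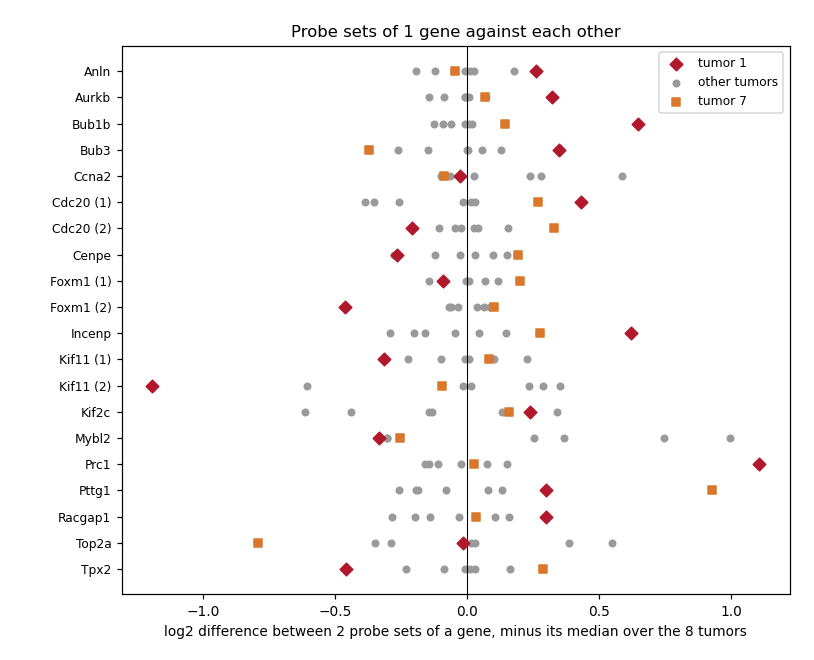
For 20 pairs of probe sets of 1 member gene, both detected in all 8 tumors, the log2 difference between the probe set with the highest mean and the further one, minus its median over the 8 tumors. Each point is 1 tumor (diamonds tumor 1, squares tumor 7, circles the others), and numbers after a gene name count its pairs. Tumor 1 lies outside the other 7 in 14 of the 20 pairs.

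The design allows 1 comparison, that of the site of origin. For each member the mean of the 2 ganglion tumors was set against the mean of the 6 adrenal tumors with limma over all 16254 genes. No member of 38 was called at an adjusted p under 0.05, against 0.0185% of all genes, which is 3 genes (Acta1, Clvs2 and Tnnt3, all higher in the ganglion tumors). At an unadjusted p under 0.05 there was also no member, against 4.68% of all genes. In no member did both ganglion tumors lie beyond all 6 adrenal tumors, against 4.42% of all genes.

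The differences, ganglion minus adrenal, ran from −0.73 for Nusap1 to 0.33 for Bub3, with a median of −0.13 against −0.03 over all genes. In the ganglion tumors 28 members were lower and 10 higher, against 8978 lower and 7276 higher of the 16254 genes tested. Nusap1 had a mean of 10.68 in the adrenal and 9.95 in the ganglion tumors (SE of the difference 0.37, limma adjusted p = 0.90). By exact permutation of the site labels, two-sided over 28 splits, its p was 0.107, and no other member had a smaller one. The smallest p this design can give is 0.0357. The 95% interval reached 0.38 to 1.04 to either side of the estimate, with a median of 0.72, so differences within that width were not detectable with these 8 arrays. For Cdk1 the difference was 0.16 (95% interval −0.65 to 0.97) and for Mki67 −0.27 (−1.08 to 0.54). Of the 105 other mitosis genes none was called by limma, and 2 had an unadjusted p under 0.05, Cenpt with a difference of −0.37 and Rbl1 with −0.77. None of the 53 replication genes had an adjusted or unadjusted p under that limit.

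**Figure D5:**
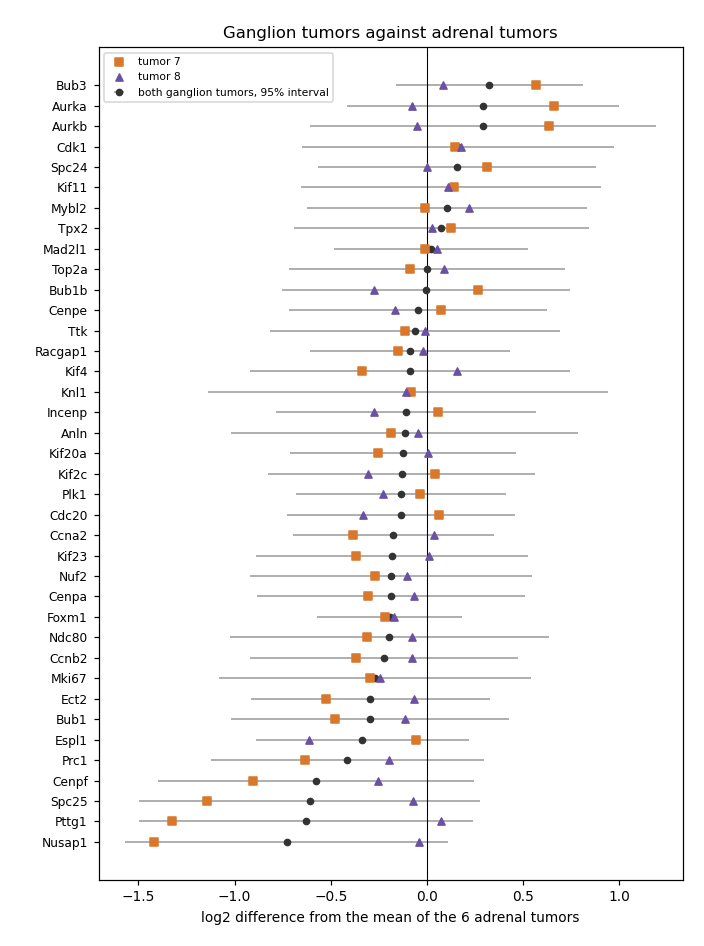
Log2 difference of the ganglion tumors from the mean of the 6 adrenal tumors for each of the 38 members, ordered by size. Dark points with lines give both ganglion tumors with the 95% limma interval, squares tumor 7 and triangles tumor 8. All intervals include 0, and for Nusap1, Pttg1, Spc25 and Cenpf tumor 7 lies farther below 0 than tumor 8.

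The 2 ganglion tumors read unlike each other for some members. Tumor 7 held the lowest value of 7 of the 38 members, Pttg1, Nusap1, Spc25, Cenpf, Prc1, Ect2 and Foxm1, against 26.4% of all genes. Tumor 7 was 1.40 below tumor 8 for Pttg1, 1.38 for Nusap1, 1.07 for Spc25 and 0.65 for Cenpf, and 0.74 above it for Aurka, 0.68 for Aurkb and 0.49 for Bub3. Set alone against the 6 adrenal tumors in limma, with the single array assumed to vary like the others, tumor 7 gave 0 of 38 members at an adjusted p under 0.05, against 5.87% of all genes. At an unadjusted p under 0.05 there were 3 members, Nusap1, Pttg1 and Spc25, against 19.0% of all genes. Tumor 7 was not the lowest by every further probe set of these genes. The dimmest Pttg1 probe set, detected in 4 tumors, read 6.69 in tumor 7, 6.63 in tumor 2 and 6.67 in tumor 5. A dimmer Nusap1 probe set, detected in 6 tumors, gave 6.99 for tumor 7, inside the 6.78 to 7.90 of the other 7 tumors. The further Cenpf probe sets read 7.23 and 7.32 in tumor 7, above tumor 2 at 6.95 and 6.87. For Spc25 the further probe set, detected in 2 tumors, read 6.74 in tumor 7, above its mean of 6.57. By the probe set with the highest mean, tumor 7 was 1.42 below the adrenal mean for Nusap1, 1.33 for Pttg1 and 1.15 for Spc25.

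Tumor 7 also stood apart in its markers. The 10 measured noradrenergic neuroblast markers had a mean level of 9.44 there, with 8 detected, against 12.72 to 13.11 with all 10 detected in the other 7 tumors. Of 13 skeletal muscle genes, 8 were detected in tumor 7 and 7 in tumor 8, against 0 to 2 in the adrenal tumors. Tumor 6 held hepatocyte transcripts, with 10 of 10 hepatocyte genes detected at a mean of 12.45 against 5.83 to 6.20 elsewhere, beside a member median of 0.10. In tumor 5, with a low member median, fibroblast and pericyte genes had a mean of 8.30, against 9.59 to 10.83 in the other tumors. In tumors 2 and 3, the lowest and the highest for the members, noradrenergic genes had means of 13.03 and 12.72, macrophage genes 9.45 and 9.43, fibroblast and pericyte genes 9.92 and 9.99, lymphocyte genes 6.61 and 6.54 and endothelial genes 6.91 and 6.58. Schwann cell genes had a mean of 7.63 in tumor 2 and 8.90 in tumor 3, and read 7.08 in tumor 5 and 6.89 in tumor 7. The part of other cell types in the member values was not tested. Without tumors 6 and 7 the members' median deviation was −0.50 in tumor 2 and 0.57 in tumor 3. Then 30 of the 38 were highest in tumor 3, and 35 of the 38 were lowest in tumor 2 or 5. Shares over all genes were not computed without these tumors. Tumor 7 held the lowest value of 26.4% of all genes, so these counts cannot be set beside those over all 8 tumors.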

How the data were processed

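Total RNA of 8 tumors (6 adrenal, 2 superior cervical ganglion) was hybridised to 1 Affymetrix mouse oligonucleotide array each. The deposited values are log2 expression values per probe set. RMA and Partek 6.6 are given in the processing notes of the submitters and gcRMA in the methods of the study, so which of these background corrections made the table is not settled. Both put arrays on a common scale, so array depth is not a quantity here and the number of arrays limits precision.

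Groups came from the labels, and no 2 arrays held identical values. Of 45101 probe sets, 34958 were paired with 1 gene, 932 with several and 9211 with none in the platform annotation used, and 34754 matched a RefSeq gene by Entrez number. The probe set with the highest mean stood for each of 18194 genes, and the 16254 genes whose value passed log2 5 in 2 or more tumors entered the test. Probe set names ending in _s_at or _x_at can share probes with other transcripts. The site comparison used limma 3.58.1 (lmFit, eBayes, two-sided) in R 4.3.3, with Benjamini-Hochberg adjustment over all 16254 genes and a threshold of 0.05. The script was tested on simulated data. Single members were also compared by exact permutation of the site labels.

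Every member with a probe set was named. Of the other mitosis and the replication genes, those called and the 5 with the widest SD over the 8 tumors were to be named, and Cenpt was added after its values were seen. Members and lists were chosen with earlier results of these data known. Promoters came from RefSeq (GRCm38.p6), and motif matches were counted with Python 3.11.15, with 95% Wilson intervals for shares, which cover counting only. Alternatives were another normalization, filter, probe set rule, limma with an intensity trend, another detection limit or promoter window, and leaving out tumors.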

Additional observations from a re-analysis of the deposited data

Results flagged for a closer look

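Of 118 sets of values examined for a sample far from the others (the 38 members and the list medians, over all 8 tumors and over the 6 adrenal tumors), 3 stood apart, and chance alone gives about 1 in 20, or 5.9 here. All 3 were low values of tumor 2. Knl1 read 7.27 in tumor 2, against 8.62 to 9.38 in the other 5 adrenal tumors and 8.52 to 9.38 in all other 7 tumors. The gap to the nearest tumor took 0.641 of the whole range among the adrenal tumors and 0.595 among all 8. A further Knl1 probe set, detected in 7 tumors, read 7.13 in tumor 2 beside 7.16, 7.18 and 6.97 in tumors 5, 6 and 7. Both Knl1 values of tumor 2 lay near that array's detection limit of 7.21. Cenpe read 9.47 in tumor 2, against 10.14 to 10.64 in the other 7 tumors, a gap of 0.577 of the range.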

How the results depend on the processing

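Of 723 values recomputed under alternatives, 690 counted as unchanged. For the site difference of a single member this meant the same sign and the same limma call, whatever its size. Counts, levels, medians and shares counted as unchanged when they stayed within set limits. No member and no other mitosis gene was called by limma for site of origin under any alternative. The number of all genes called moved from 3 to 1 with a filter on detected genes, 6 with the mean of a gene's probe sets and 9 without tumors 6 and 7, and ran from 2 to 951 when each tumor was left out in turn, with 951 without tumor 8 and 8 without tumor 7. Members with an unadjusted p under 0.05 numbered 0 to 3 when each tumor was left out, with Cenpf alone without tumor 2 and Nusap1, Pttg1 and Spc25 without tumor 8. The Pttg1 site difference of −0.63 ran from −1.33 to 0.073 when each tumor was left out, with 0.073 without tumor 7, and was 0.098 without tumors 6 and 7. Members highest in tumor 3 numbered 26 to 32 under all alternatives, 26 with quantile normalization. The share of members with a CHR fell to 37.5% with the upstream bases only, because many matches lie just after the start, and that of CCAAT boxes to 50.0% on the strand of the gene only. Of 456 member levels recomputed, 22 moved by over 1 SD, all with the mean of the probe sets. Leaving out 1 or 2 of the 8 tumors cannot move a mean by 1 SD. Levels under those settings could therefore only count as unchanged, and they are part of the 690. No paired analysis was possible because the labels do not say which tumors, if any, came from the same mouse.

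With 2 ganglion tumors, and 1 array per tumor, neither the spread within a site nor that of a single tumor is well known. Tumor 7 is 1 of the 2 ganglion tumors. Each array value depends on its probe set, most of all in tumor 1.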
